A study of Mus musculus with 4 samples.

Results

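The expression profile described here is that of the wild-type (WT) mouse hippocampus, taken from the 1 library labelled wild type among the 4 libraries of the series. The hippocampus came from C57BL/6 mice aged 6 months, and the other 3 libraries, of the same strain and age, carried the genotypes Ogg1-/-, Mutyh-/- and Ogg-/- Mutyh-/- (the knockout of both genes, DKO). How many animals the RNA sample held, and of which sex, is not given in the sources used here. All 17419 genes listed for the WT library were members, and they held about 18117500 reads. With 1 library there was no replicate, so no value below has a standard deviation or a test. The intervals in the text are exact 95% Poisson intervals for levels and exact 95% Clopper-Pearson intervals for shares, and they cover counting error only.

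The hippocampus is a layered cortical structure in which granule cells of the dentate gyrus project to CA3 pyramidal cells and CA3 cells project to CA1 pyramidal cells, all of them using glutamate, while sparse interneurons release GABA and many of them neuropeptides. Astrocytes clear glutamate and potassium, oligodendrocytes make myelin, and microglia are the resident immune cells. Changes in the strength of its glutamate synapses, which need NMDA receptors and the kinase CaMKII, are a textbook basis of learning and memory.

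Levels are given in RPKM, the reads of a gene per kilobase of its length, scaled by the summed reads of all listed genes. On this scale genes of different length were compared. The median listed gene had 5.75 RPKM, the middle 50% of genes lay between 0.956 and 17.1 RPKM, and the 99th percentile was 209 RPKM. At or over 1 RPKM there were 12976 genes (74.5% of those listed), and together they held 99.6% of the reads. At or over 100 RPKM there were 548 genes (3.15%), which held 32.5% of the reads. Among the listed genes no single one dominated: the gene with most reads held 0.630% of the reads. The top 100 genes by reads held 16.3%, and 1028 genes were needed to reach 50%. Genes of the mitochondrial genome were not listed, so these shares do not cover them. In a gene of the median length of 2699 bases, 1 read was worth 0.0205 RPKM.

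**Figure D1:**
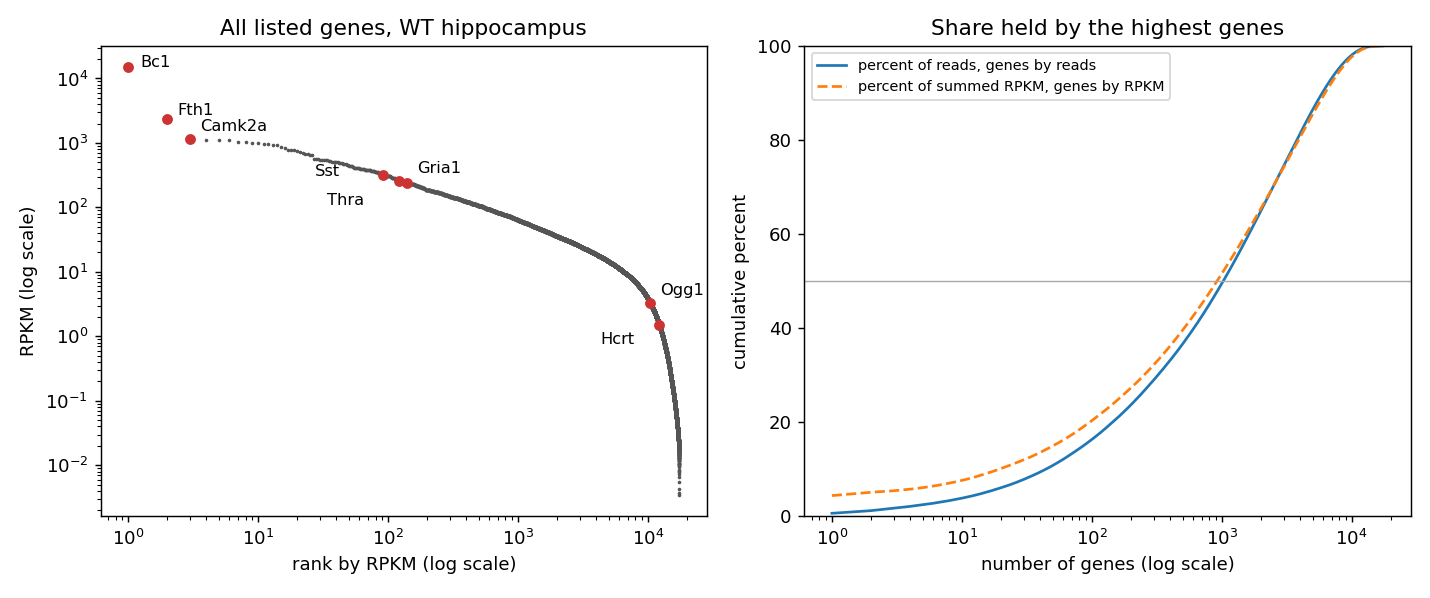
Left, RPKM of every listed gene of the 1 WT library against its rank, both on log axes, with 8 genes marked in red. Right, the cumulative percent of reads (genes ordered by reads, solid) and of summed RPKM (genes ordered by RPKM, dashed), with a grey line at 50%: Bc1 stood apart at 14898 RPKM, and 1028 genes held 50% of the reads.

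Bc1, the brain cytoplasmic RNA, was the highest row of the library at 14898 RPKM (interval 14755 to 15042). It is a small noncoding RNA transcribed by RNA polymerase III that is carried into dendrites and binds poly(A)-binding protein. Its 41567 reads fell on a deposited length of 154 bases, of which 74.7% was covered, and it alone made up 4.39% of the summed RPKM while placing fifteenth by reads. The reference transcript of GENCODE lies on the plus strand of the mouse genome GRCm38.p6 at chr7:144914470-144914637 and is 168 bases long. It is printed with its longest run of A, 23 bases, in capitals, because the A-rich middle of this RNA is known as the part that binds poly(A)-binding protein.
Bc1: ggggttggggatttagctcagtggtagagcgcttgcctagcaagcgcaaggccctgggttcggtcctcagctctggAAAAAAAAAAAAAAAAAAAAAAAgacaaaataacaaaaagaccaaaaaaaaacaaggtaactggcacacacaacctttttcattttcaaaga

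Fth1, the heavy chain of the iron store ferritin, was second at 2371 RPKM (2347 to 2395). Camk2a, the alpha subunit of CaMKII, had 1135 RPKM (1128 to 1142), and its 102087 reads were the second most of any gene. Its level was 3.15 times that of Camk2b, the beta subunit (3.11 to 3.19). The ribosomal RNA rows Rn18s and Rn28s1 stood at 1121 and 1110 RPKM, beside the chaperone Hspa8 at 1113 RPKM, and the intervals of these 3 rows overlapped one another. All ribosomal and other structural RNA rows held 0.735% of the reads. How library making and unique counting changed the ribosomal RNA reads was not tested, so Rn18s and Rn28s1 do not measure the ribosomal RNA of the tissue. Nrgn, the calmodulin-binding neurogranin, and Eef1a1, the factor that brings aminoacyl-tRNA to the ribosome, were not separated at 1044 RPKM each. Snap25, a core protein of vesicle fusion, had 1001 RPKM, and Apoe, the lipid carrier made by astrocytes, had 988 RPKM.

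The rest of the 20 highest rows were mostly neuronal, metabolic and calcium-binding genes. Actb (cytoplasmic actin) had 961 RPKM, Aldoa (a glycolytic aldolase) 933 RPKM and Cpe (carboxypeptidase E, which trims peptide hormones) 923 RPKM. Cst3, the protease inhibitor cystatin C, had 878 RPKM, Ncdn (neurochondrin) 790 RPKM and Hpca, the calcium sensor hippocalcin, 774 RPKM. The calmodulin genes Calm2 and Calm3 had 833 and 772 RPKM. Genes such as Actb, Hspa8, Eef1a1 and Fth1 have near-identical copies elsewhere in the genome, and reads may have been divided or lost between copies, so their levels are uncertain beyond the counting interval.

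By reads, which grow with length, the order was different: 64 genes were in both the top 100 by reads and the top 100 by RPKM, and the median length was 4018 bases in the first set and 2200 bases in the second. Meg3, an imprinted long noncoding RNA, had the most reads (114079) at 550 RPKM. Camk2a and Rn28s1 followed, and Slc1a2, the main astrocytic glutamate transporter, had 64691 reads. Ncdn, Map1a (a microtubule-associated protein of neurons), Mbp (myelin basic protein) and Ddn (dendrin) were also in the top 10, with 53004, 49912, 49053 and 45221 reads.

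Functional classes were set as lists of genes, and the share of each was the percent of all reads that its listed members held. The lists overlap in places (Camk2a and Nrgn are in both the postsynaptic and the calcium list, Aldoc in both the astrocyte and the glycolysis list), and together the 629 genes in any of the 18 classes held 19.9% of the reads. The synaptic lists led on this scale, and the ribosomal protein list led per length.

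**Figure D2:**
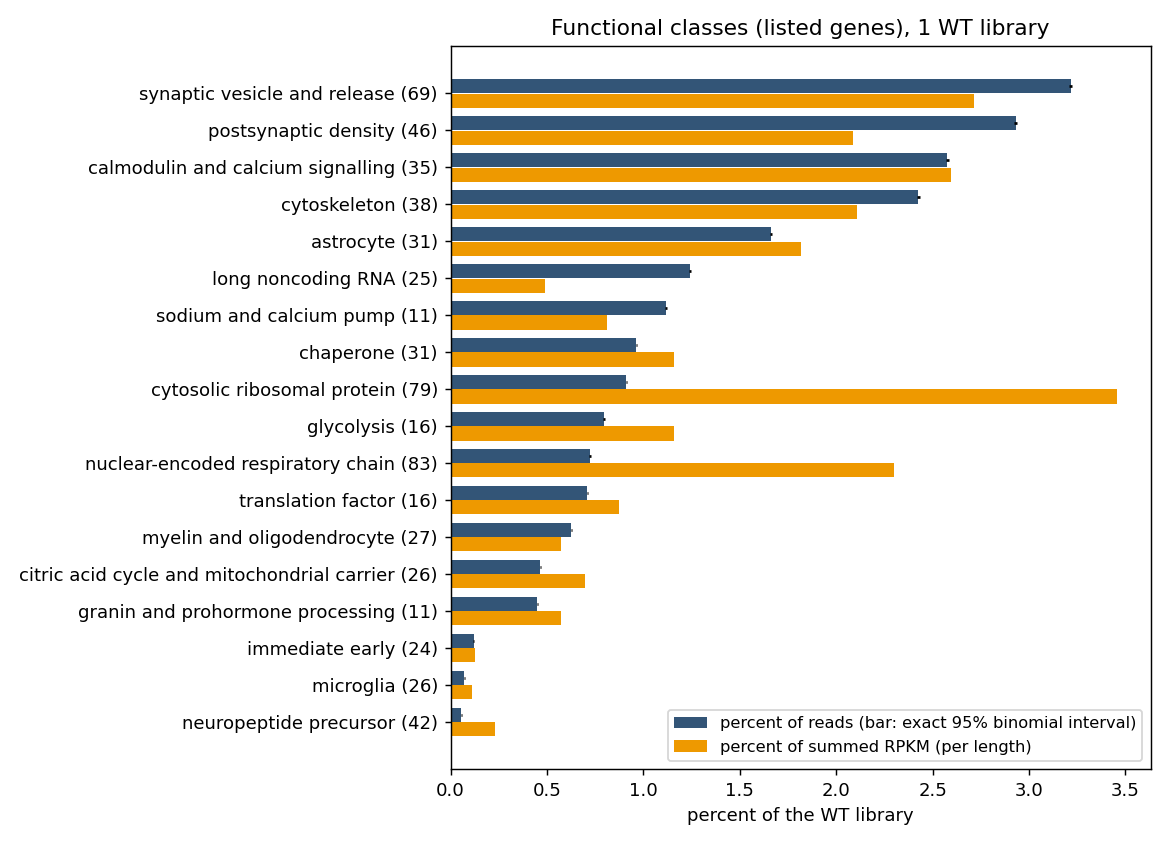
Share of the WT library held by 18 functional classes, as percent of reads (blue, with the exact 95% binomial interval) and as percent of summed RPKM (orange), with the number of listed genes in brackets. Vesicle genes led by reads at 3.22%, while the short ribosomal protein genes held 0.912% of reads and 3.46% of summed RPKM.

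Genes of synaptic vesicles and transmitter release held 3.22% of the reads (3.21% to 3.23%). All 69 were listed, all were at or over 1 RPKM, and 27 were at or over 100 RPKM; their median was 72.7 RPKM, beside 5.75 RPKM over all listed genes. The fusion protein Snap25 had 1001 RPKM (991 to 1011), 1.98 times the vesicle protein Syp (1.95 to 2.02), and its partner Vamp2 had 703 RPKM (694 to 711). Slc17a7, which loads vesicles of cortical and hippocampal neurons with glutamate, had 548 RPKM (541 to 554) and was 164 times as high per length as Slc17a6 (145 to 185), the transporter used in thalamus and hypothalamus. The lowest member was Slc17a8, the transporter of a small set of neurons, with 1.28 RPKM.

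Postsynaptic density genes held 2.93% of the reads (2.92% to 2.94%), and Camk2a alone gave 19.2% of that sum. Of 47 genes, 46 were listed, with a median of 61.5 RPKM and 14 at or over 100 RPKM. After Camk2a and Nrgn came Ddn, a protein of dendrites and spines, with 667 RPKM (661 to 674). The lowest listed member was Lrrtm3, a synaptic adhesion protein, with 6.22 RPKM. Calmodulin and calcium signalling genes held 2.58% of the reads, with 18 of 35 genes at or over 100 RPKM and Camk1g lowest at 10.4 RPKM.

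Astrocyte genes held 1.66% of the reads (1.66% to 1.67%), more than the myelin and oligodendrocyte genes with 0.627% (0.623% to 0.631%) and the microglial genes with 0.0718% (0.0705% to 0.0730%). These shares depend on which genes each list holds and do not measure cell numbers: in bulk RNA, fewer cells of a type and less RNA per cell cannot be told apart. All 31 astrocyte genes were at or over 10 RPKM. After Apoe, the highest were Glul, the glutamine synthetase that converts glutamate taken up from synapses, with 685 RPKM (677 to 692), and Sparcl1, a secreted synapse-organizing protein, with 545 RPKM (539 to 551). Dio2, which activates thyroid hormone, was lowest at 11.2 RPKM.

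In the myelin list, Mbp had 562 RPKM (557 to 567) and gave 43.2% of the reads. Plekhb1 had 142 RPKM, and the lowest of the 27 genes was Ninj2 with 1.28 RPKM from 19 reads. Among the 26 microglial genes none reached 100 RPKM. The complement genes C1qb, C1qc and C1qa stood at 39.4, 37.2 and 36.7 RPKM, and the intervals of these 3 overlapped. Ptprc, the leukocyte antigen CD45, was lowest at 0.809 RPKM.

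Energy metabolism was carried by many genes of intermediate to high level. Nuclear-encoded respiratory chain and ATP synthase genes held 0.723% of the reads and 2.30% of the summed RPKM, with 77 of 83 listed genes at or over 10 RPKM. Atp5b, the catalytic beta subunit of ATP synthase, had 479 RPKM, Cox8a had 420 RPKM and Cox6a1 had 346 RPKM. Cox6a1 was 56.0 times its muscle paralog Cox6a2 (44.6 to 71.2), and the lowest listed member was Cox7b2 with 1 read. None of the 37 genes of the mitochondrial genome in the RefSeq table was listed, by gene ID. Whether these genes were in the annotation used for counting is not known, so their absence is not a measured level. Shares here are of the reads in listed genes and hold no reads of these genes.

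All 16 glycolysis genes were at or over 10 RPKM and 13 at or over 100 RPKM, with 0.795% of the reads. Aldoa was followed by Pkm (pyruvate kinase) at 492 RPKM and by Aldoc, the aldolase of astrocytes, at 403 RPKM; Aldoa was 2.31 times Aldoc (2.27 to 2.36). Pfkp was lowest at 46.4 RPKM. Gapdh and Eno1 had reads on only 25.3% and 40.0% of their length. What set this was not tested, so their levels and places in the order are uncertain. Among citric acid cycle and mitochondrial carrier genes (0.465% of reads), Slc25a4, the ADP/ATP exchanger, led with 295 RPKM, Mdh2 had 171 RPKM, and Suclg2 was lowest at 5.23 RPKM.

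The 11 sodium and calcium pump genes held 1.12% of the reads. The sodium pump beta subunits Atp1b1 and Atp1b2 had 647 and 286 RPKM, and the plasma membrane calcium pump Atp2b4 was lowest at 19.6 RPKM.

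Cytoskeleton genes held 2.43% of the reads, with 28 of 38 at or over 100 RPKM. After Actb came the actin-severing Cfl1 at 511 RPKM and the actin monomer-binding Tmsb4x at 484 RPKM. Tuba1c was lowest at 0.251 RPKM from 9 reads. The related Tuba1a and Tuba1b had reads on 50.9% and 34.8% of their length. How unique counting changed the levels of these tubulin genes was not tested. Of translation factors (0.709% of reads), Eef1a1 was 2.36 times Eef1a2, the form of mature neurons and muscle (2.32 to 2.40). Eef2 had 374 RPKM. The lowest member of the list was Tpt1 at 4.33 RPKM with 21.2% of its length covered. It encodes the translationally controlled tumor protein, which is not an initiation or elongation factor.

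The 79 cytosolic ribosomal protein genes, taken by name from the listed genes, held 0.912% of the reads (0.908% to 0.916%) and 3.46% of the summed RPKM. Their median was 139 RPKM and 56 were at or over 100 RPKM. Rplp1 of the ribosomal stalk had 520 RPKM (505 to 536) and Rpl41 had 432 RPKM (418 to 446). At the other end were Rps23 with 11 reads and 1.06 RPKM and Rps27 with 23 reads and 2.12 RPKM. Ribosomal proteins have many processed copies in the genome. Their levels moved with the deposited coverage, which is how much of a gene's length had reads, in percent. Coverage and level come from the same reads, so some link between them is built in. The 15 genes under 75% coverage had a median of 59.4 RPKM, the 29 genes from 75% to 95% had 138 RPKM, and the 35 genes at or over 95% had 168 RPKM. What set the low values was not tested.

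**Figure D3:**
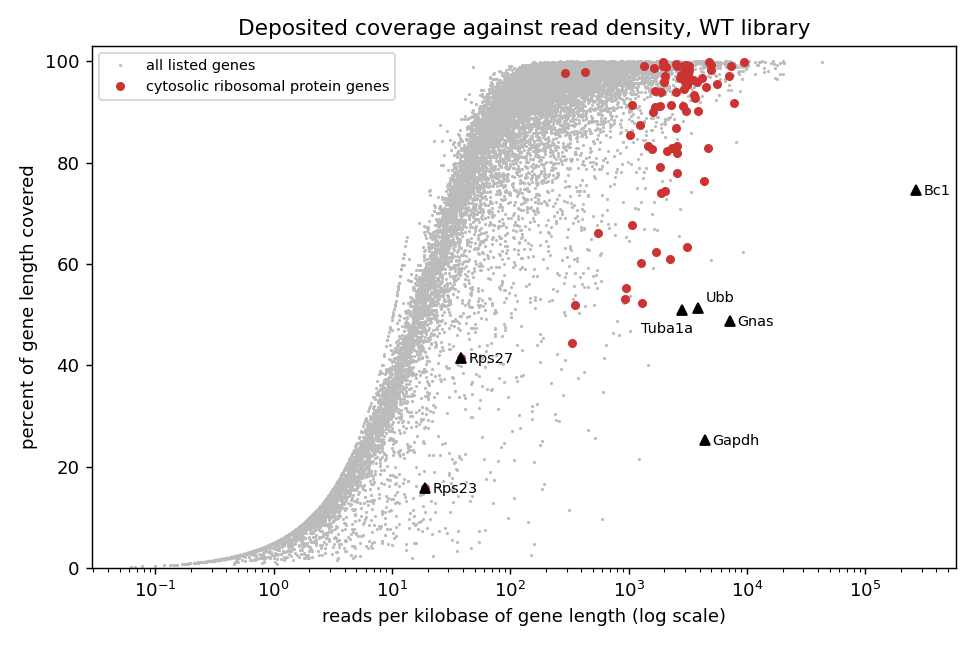
Percent of the gene's length covered by reads, as deposited, against reads per kilobase (log axis) for all listed genes of the WT library (grey) and the cytosolic ribosomal protein genes (red), with 7 genes marked by triangles. Most genes with over 1000 reads per kilobase were covered almost throughout, while Gapdh (25.3%), Gnas (48.7%), Tuba1a (50.9%) and Ubb (51.4%) were not.

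Coverage rose with read density over the library as a whole. Genes with 10 to 30 reads per kilobase had a median coverage of 50.5%, those with 100 to 300 had 94.98%, and the 1200 genes with over 1000 had 98.7%. Among those 1200 genes 5 were under 50%. Gapdh and Gnas were the only genes over 100 RPKM among all listed genes with less than 50% coverage. Gapdh, the glycolytic enzyme often used as a loading standard, had 244 RPKM from 5545 reads on 25.3% of its length, and Gnas, the stimulatory G protein alpha subunit at a complex imprinted locus, had 394 RPKM on 48.7%. Some rows of genes not known from brain also had many reads on a small part of their length: the olfactory receptor row Olfr613 held 3077 reads on 9.75% of its length.

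Chaperone genes held 0.964% of the reads (0.960% to 0.969%) in the WT library, against 0.842% in the Ogg1-/- library, 0.846% in the Mutyh-/- library and 0.841% in the DKO library. The other libraries are shown for this list because earlier results of these data had set WT apart on it. With 1 library per genotype, the difference was not tested. Hspa8, Hsp90ab1 at 711 RPKM and Hsp90aa1 at 433 RPKM led the 31 genes. The heat-inducible Hspa1a was lowest at 2.56 RPKM, with the near-identical Hspa1b at 4.71 RPKM and both under 50% coverage. Immediate early genes, which neurons switch on within minutes of activity, held 0.120% of the reads. The synaptic regulator Arc at 57.7 RPKM (55.8 to 59.8) and the transcription factor Egr1 at 57.1 RPKM (55.1 to 59.1) were not separated, and Egr3 followed at 44.4 RPKM. Fos itself had 6.58 RPKM (5.79 to 7.44), and the injury-linked Atf3 was lowest of the 24 at 0.362 RPKM. The handling of the animals before the tissue was taken is not given in the sources used here.

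Long noncoding RNAs held 1.24% of the reads, of which Meg3 gave 50.8%. Snhg11 had 405 RPKM and Malat1, a nuclear RNA, 148 RPKM, and Xist was lowest at 0.0431 RPKM.

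Neuropeptide precursors held 0.0563% of the reads (0.0552% to 0.0574%), the smallest share of reads among the 18 classes plotted. Per length they were not the smallest: they held 0.230% of the summed RPKM, above immediate early genes (0.125%) and microglial genes (0.113%). Of 55 genes, 42 were listed, with a median of 0.730 RPKM, 19 were at or over 1 RPKM and 5 at or over 10 RPKM. Sst, the precursor of somatostatin from dendrite-targeting interneurons, had 323 RPKM (312 to 333) from 3500 reads and Cck, the cholecystokinin precursor, 289 RPKM (279 to 298) from 3672 reads. Their ratio per length was 1.12 (1.07 to 1.17). Npy, neuropeptide Y, had 67.8 RPKM (62.8 to 73.0), Grp (gastrin-releasing peptide) 19.9 RPKM and Penk (proenkephalin) 19.4 RPKM, the last pair not separated. Below them stood Cort (cortistatin) at 7.54 RPKM, Vip at 6.65 RPKM and Pdyn (prodynorphin) at 3.92 RPKM. The 13 precursors that were not listed were Tac4, Galp, Nmu, Nms, Npvf, Iapp, Sct, Gcg, Ucn, Ucn3, Prlh, Pyy and Ppy. Of these, 6 (Nms, Npvf, Iapp, Sct, Ucn and Ucn3) were listed in at least 1 other library with at most 3 reads.

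The upstream sequences of the 3 highest precursor genes are shown because these genes hold most of the peptide reads. Each is the 150 bases before the gene start, read on the strand of the gene, from RefSeq on GRCm38.p6. Sst lies on chr16:23890845-23890994 (minus strand), Cck on chr9:121495695-121495844 (minus strand) and Npy on chr6:49822560-49822709 (plus strand). Capitals mark matches to any of 4 motifs searched on both strands in the 250 bases before the start: the cyclic AMP response element TGACGTCA, the GC box GGGCGG, the TATA box TATAAA and the E-box CACGTG.
Sst: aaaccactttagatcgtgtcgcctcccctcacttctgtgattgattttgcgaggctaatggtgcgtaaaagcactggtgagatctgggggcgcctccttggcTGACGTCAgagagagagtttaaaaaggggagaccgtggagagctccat
Cck: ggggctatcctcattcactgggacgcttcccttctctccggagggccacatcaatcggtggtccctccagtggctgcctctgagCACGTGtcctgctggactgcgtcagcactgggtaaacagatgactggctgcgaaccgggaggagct
Npy: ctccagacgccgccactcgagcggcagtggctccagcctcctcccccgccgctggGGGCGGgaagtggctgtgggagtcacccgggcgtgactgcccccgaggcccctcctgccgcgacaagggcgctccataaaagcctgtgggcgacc
Sst held the cyclic AMP response element 48 bases before the start, the element through which cyclic AMP is known to act on this gene. Of the 31 listed precursor genes with an upstream sequence, 2 held it (6.45%; Sst and Cartpt), against 1.77% of all 27025 genes with one. Cck held the E-box 66 bases before its start (9.68% of the precursor genes and 6.86% of all genes), and Npy the GC box 95 bases before its start (38.7% and 35.4%). The TATA box was in none of these 3 and in 35.5% of the precursor genes, against 14.3% of all genes. A match describes the letters and is not a measured binding site.

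Genes for the proteins that process and pack peptides had higher levels than most precursors, and all 11 granin and processing genes held 0.450% of the reads. After Cpe came Pcsk1n, an inhibitor of the convertase PC1, at 276 RPKM with 60.8% coverage, and the granin Chgb at 198 RPKM. The convertase gene Pcsk1 was lowest at 3.75 RPKM.

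Transcription factors were gathered in 12 families by gene name. The 644 genes outside those named Zfp had a median of 3.25 RPKM, and 66.5% of them were at or over 1 RPKM, beside 74.5% of all listed genes. The genes named Zfp were at or over 1 RPKM in 88.0% of cases, and all 1012 family genes together in 74.3%, near the share of all listed genes. Counting the 368 genes named Zfp, the families held 3.48% of the reads, and 4 genes were at or over 100 RPKM. Of the 628 factors outside the Zfp names with an entry in the deposited gene ontology function column, 75.6% carried a transcription factor term there.

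Thra, the thyroid hormone receptor alpha, was the highest transcription factor with 261 RPKM (256 to 266), and it was 29.1 times Thrb (27.3 to 31.1). The calmodulin-binding factor Camta2 had 173 RPKM, the repressor Zbtb18 had 119 RPKM and the E-protein Tcf4 had 102.6 RPKM. Tef, a clock-controlled leucine zipper factor, and Neurod6, a factor of pyramidal neurons, were not separated at 94.4 and 93.4 RPKM. Neurod2 had 82.1 RPKM, Maz 78.0 RPKM, Nfix 71.9 RPKM, Nfe2l1 69.4 RPKM, Camta1 66.9 RPKM and Mef2d 64.5 RPKM. Olig1, of the oligodendrocyte lineage, had 62.5 RPKM and was followed by Klf9 and Zbtb20 at 60.8 and 60.7 RPKM. The group thus held factors of neurons, of oligodendrocytes and of general use.

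Zeb2, at 39.8 RPKM, led the homeodomain, POU and paired group with Lhx2 at 38.8 RPKM, and the 2 were not separated. Cic led the HMG group at 49.8 RPKM and Elk1 the ETS group at 35.8 RPKM, with Etv1 at 34.1 RPKM not separated from it. Zfp365 was the highest of the genes named Zfp at 80.4 RPKM. Among steroid receptors the mineralocorticoid receptor Nr3c2 was 2.48 times the glucocorticoid receptor Nr3c1 (2.34 to 2.63).

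**Figure D4:**
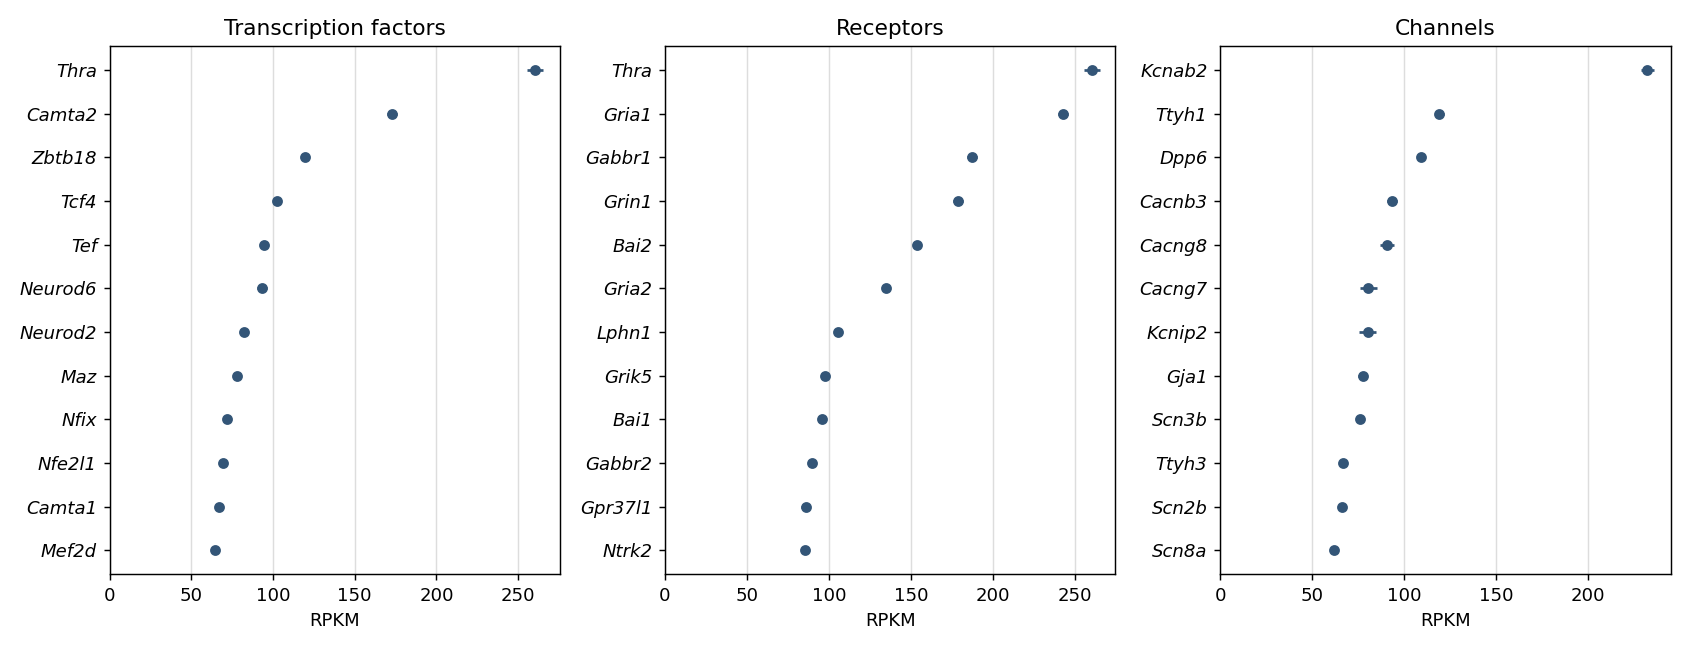
RPKM of the 12 highest transcription factors (genes named Zfp left out), receptors and channels among those reported for the WT library, with exact 95% Poisson intervals as bars, most of them smaller than the points. Thra leads both the factors and the receptors at 261 RPKM, and the auxiliary subunit Kcnab2 leads the channels at 232 RPKM.

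The 425 receptor genes, in 22 families, held 2.20% of the reads with a median of 2.53 RPKM, and 7 were at or over 100 RPKM. Apart from Thra these were the glutamate receptor genes Gria1, Grin1 and Gria2, the GABA-B receptor gene Gabbr1, and the adhesion receptor genes Bai2 and Lphn1. Bai2 had 154 RPKM, Lphn1 106 RPKM and Bai1 96.0 RPKM, the highest 3 of the adhesion and orphan group.

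Of the AMPA receptor subunits, which carry fast glutamate currents, Gria1 had 243 RPKM (240 to 246) and Gria2, which makes the channel impermeable to calcium, had 135 RPKM (133 to 137). Gria1 was 1.80 times Gria2 (1.76 to 1.83). Gria3 had 44.7 RPKM and Gria4 12.8 RPKM, and no intervals of this family overlapped. Of the kainate subunits Grik5 led at 97.9 RPKM, followed by Grik4 at 22.4, Grik2 at 15.2, Grik3 at 10.9 and Grik1 at 3.82 RPKM. The delta receptor Grid1 had 24.5 RPKM.

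Of the NMDA receptor subunits, the obligatory Grin1 had 179 RPKM (175 to 182) and was 10.5 times Grin2b (10.1 to 11.01). Grin2b had 17.0 RPKM, Grin2c 13.2, Grin3a 6.17, Grin2d 5.31, Grin2a 3.87 and Grin3b 0.538 RPKM, and of these neighbours Grin3a and Grin2d were not separated. Grin2a, a subunit widely described in adult forebrain, was thus 4.39 times lower than Grin2b (3.90 to 4.95), with 316 reads over 95.5% of a deposited length of 4512 bases; Grin2b had 2309 reads on 7515 bases. Levels rest on the single length deposited for each gene, and how reads were distributed along these genes was not tested. Of the metabotropic receptors Grm5 had 37.8 RPKM, Grm2 23.4, Grm7 16.4, Grm3 13.8, Grm4 3.90 and Grm8 2.29 RPKM, with a single read for Grm6, a receptor of the retina.

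Of the GABA-A subunits, which form the fast inhibitory receptor, Gabra5, enriched in hippocampus, had 77.0 RPKM and Gabra2 69.3 RPKM. Gabrb2 had 39.5 and Gabrb1 26.0 RPKM, with Gabra3 and Gabra4 not separated at 21.4 and 21.1 RPKM. Gabrd, whose protein gives tonic currents in granule cells, had 10.2 RPKM, Gabrg1 4.50 and Gabrg3 2.18 RPKM. Gabrq, Gabrr2, Gabre, Gabrr1 and the cerebellar Gabra6 were all under 0.5 RPKM, Gabra6 with 2 reads. The GABA-B subunits work as a pair, and Gabbr1 at 187 RPKM was 2.09 times Gabbr2 at 89.5 RPKM (2.03 to 2.16).

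**Figure D5:**
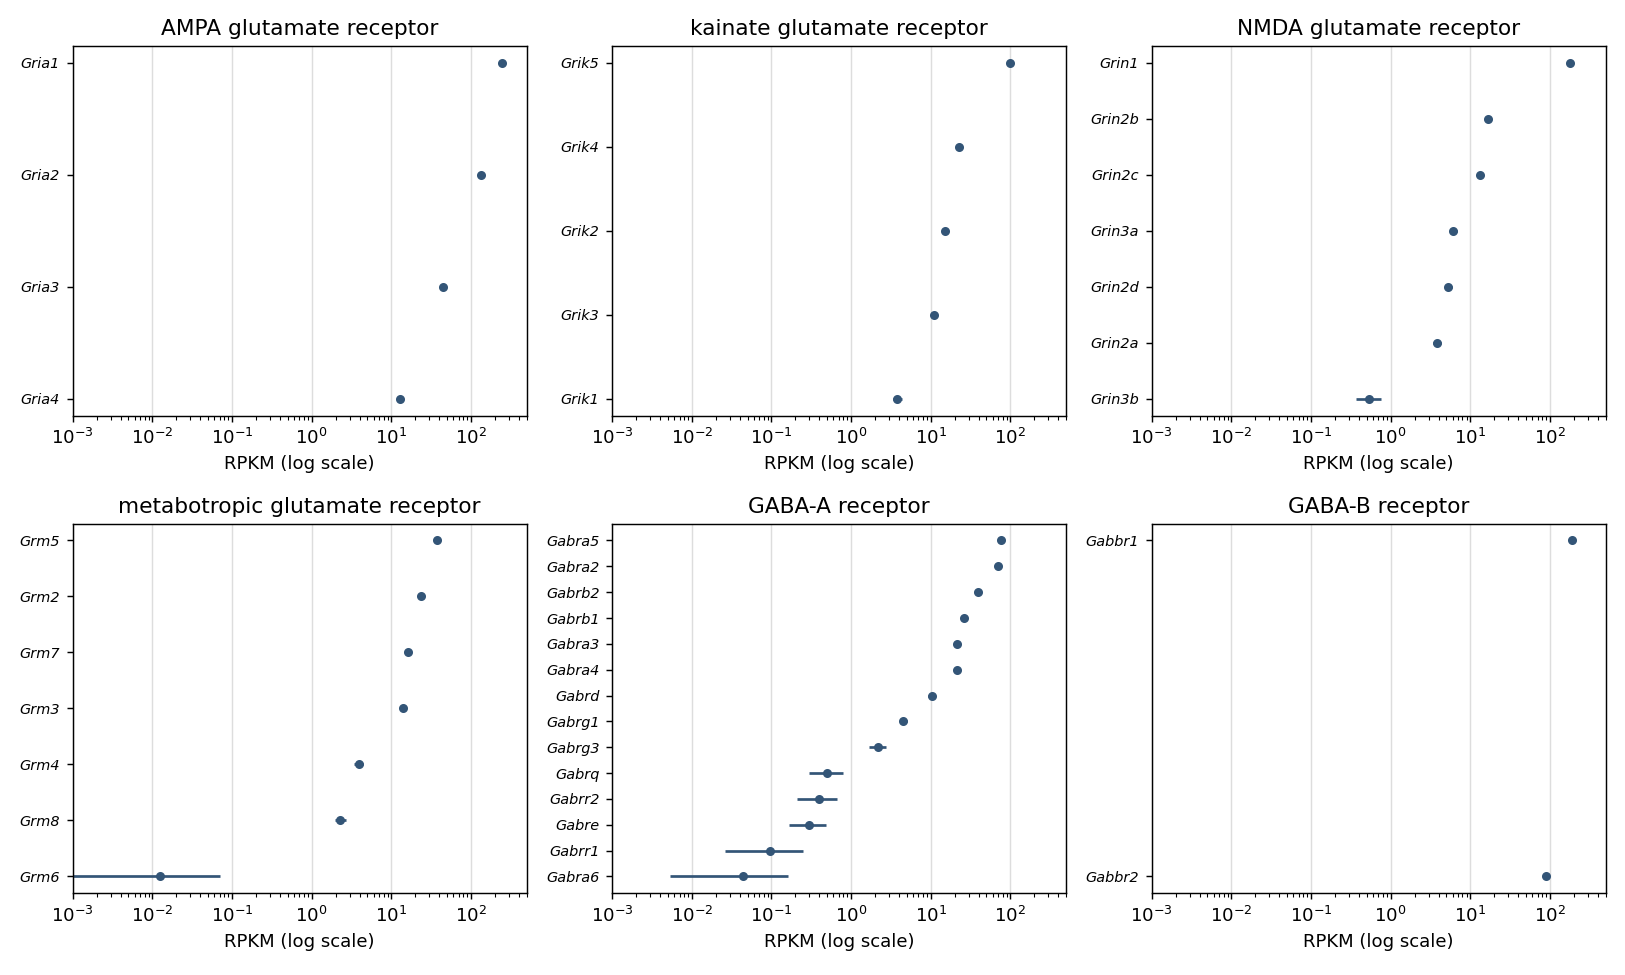
RPKM (log axis) of the subunits reported of 6 glutamate and GABA receptor families in the WT library, highest at the top, with exact 95% Poisson intervals as bars. Gria1, Grin1, Grik5, Grm5 and Gabbr1 lead their families, and Grin2a lies below Grin2b, Grin2c, Grin3a and Grin2d.

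The receptors for modulators were lower, and 1 subtype led in most families. Chrm1, the main muscarinic receptor of forebrain, had 52.9 RPKM, ahead of Chrm3 at 14.0 and Chrm4 at 8.87 RPKM. Of nicotinic subunits Chrna7 and Chrnb2 were not separated at 15.6 and 14.6 RPKM, and Chrna4 had 5.25 RPKM. Of serotonin receptors Htr2c and Htr1a were not separated at 11.3 and 10.1 RPKM, and Htr3a had 6.68 RPKM. Of dopamine receptors Drd5 had 7.27 RPKM, Drd2 3.21 and Drd1a 1.09 RPKM. The adrenergic receptor Adra1d had 34.7 RPKM, ahead of Adra2c at 9.50 and Adra2a at 7.63 RPKM.

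Adora1, the inhibitory adenosine receptor, had 63.2 RPKM, ahead of the microglial P2ry12 at 12.96 RPKM and P2rx4 at 6.03 RPKM. The cannabinoid receptor Cnr1 had 47.1 RPKM, and Cnr2 0.857 RPKM. Of opioid receptors the nociceptin receptor Oprl1 led at 14.7 RPKM, Oprd1 had 4.68 RPKM, Oprk1 0.457 RPKM and Oprm1 0.230 RPKM. The histamine receptor Hrh3 had 26.8 RPKM, Hrh1 1.42 and Hrh2 1.01 RPKM. Of peptide receptors Ntsr2, a neurotensin receptor of astrocytes, had 67.0 RPKM, Adcyap1r1 47.0 and Sstr4 21.4 RPKM.

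Among receptor tyrosine kinases Ntrk2, the receptor for BDNF, had 85.3 RPKM (83.7 to 86.9) and was 2.04 times Ntrk3 (1.96 to 2.13), with Epha4 between them at 68.9 RPKM. The glycine receptor subunit Glrb had 63.5 RPKM, while Glra2 had 3.12 and Glra3 0.524 RPKM. S1pr1, a receptor for sphingosine 1-phosphate, led the lipid and chemokine group at 58.6 RPKM, ahead of Mas1 at 18.9 and Ednrb at 15.5 RPKM.

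The 252 channel genes, in 12 families, held 1.59% of the reads with a median of 5.56 RPKM, and the highest was an auxiliary subunit. Kcnab2, the beta subunit of Kv1 potassium channels, had 232 RPKM (229 to 236), Dpp6, a partner of Kv4 channels, 109 RPKM and Kcnip2, another Kv4 partner, 80.3 RPKM. Of the pore genes the astrocytic Kcnj10 had 52.0 RPKM.

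The beta subunits Scn3b and Scn2b of sodium channels had 76.1 and 66.5 RPKM. Of the pore genes Scn8a, found at the axon initial segment and nodes, had 61.8 RPKM and was 1.55 times Scn2a1 (1.51 to 1.60). Nalcn, the sodium leak channel, had 17.6 RPKM, Scn1a 13.2, Scn3a 5.80, Scn7a 0.888 and Scn9a 0.630 RPKM, and Scn7a and Scn9a were not separated. Scn11a had 4 reads and the muscle gene Scn4a a single read. Hcn2 was highest of the pacemaker channels at 56.9 RPKM, with Hcn3 at 5.51 and Hcn4 at 0.639 RPKM; Cnga3, Cnga4, Cngb1, Cnga2 and Cngb3, of sensory cells, were at 0.314 RPKM or lower.

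Of calcium channel pores Cacna1a (P/Q type) had 37.7 RPKM, Cacna1h 32.4, Cacna1e 30.3, Cacna1b 19.4, Cacna1g 15.3, Cacna1i 14.5, Cacna1c 12.02 and Cacna1d 9.09 RPKM. The neighbours Cacna1g and Cacna1i were not separated. The skeletal muscle gene Cacna1s and the retinal gene Cacna1f had 15 and 9 reads. Cacnb3, a cytoplasmic beta subunit, and Cacng8, which also serves AMPA receptors, were not separated at 93.5 and 90.8 RPKM, and Cacng7 had 80.7 RPKM.

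In the other channel families Ttyh1 had 119, Ttyh3 66.6 and the vesicular Clcn3 31.6 RPKM. The astrocytic gap junction gene Gja1 had 77.5 RPKM, 2.28 times the water channel Aqp4 at 34.0 RPKM (2.18 to 2.39), with Panx2 at 48.0 RPKM. Tmem38a had 48.2 RPKM and Itpr1, the IP3 receptor, 44.98 RPKM, ahead of Tpcn1 at 17.8 RPKM. Tmem63b and Orai2 were not separated at 50.5 and 47.1 RPKM, ahead of the acid-sensing Asic2 at 25.3 RPKM. The lysosomal Mcoln1 led the TRP group at 27.6 RPKM, before Trpc4 at 17.7 and Trpm3 at 10.7 RPKM.

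Marker genes of the hippocampal subfields were all listed, but 1 read is enough for that, so it does not test the label. All members of the thalamic, striatal, neocortical and cerebellar lists were listed too. The dentate, CA1, CA2 and CA3 lists held 0.0597%, 0.0725%, 0.0339% and 0.0292% of the reads. The thalamic, striatal, neocortical and cerebellar lists held 0.0172%, 0.0198%, 0.0227% and 0.00162%. The dentate granule cell genes C1ql2 and Prox1 had 49.3 and 18.4 RPKM, with Stxbp6 at 28.3, Dock10 at 16.2 and Lct at 11.3 RPKM. The CA1 genes Mpped1, Fibcd1, Wfs1, Pou3f1 and Spink8 had 64.5, 44.7, 40.6, 25.6 and 14.0 RPKM. The CA2 genes Pcp4, Necab2, Rgs14, Amigo2 and Ccdc3 had 103.3, 55.2, 35.8, 10.6 and 6.48 RPKM, and the CA3 genes Cpne4, Bok, Grik4, Pvrl3 and Coch 36.3, 29.99, 22.4, 9.39 and 1.996 RPKM. Several of these genes are also used by other cells, so their order does not rank the subfields.

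Interneuron genes held 0.243% of the reads, and all 26 were at or over 1 RPKM. Cck is also made by pyramidal cells. The GABA-synthesizing Gad1 had 106 RPKM and was 2.63 times Gad2 (2.53 to 2.74), the vesicular transporter Slc32a1 had 39.4 RPKM and Pvalb, of fast-spiking cells, 17.3 RPKM. Among genes of neurogenesis Neurod2, Hopx, Calb2, Neurod1 and Sox4 were highest, all of which mature cells also use; Dcx, of newborn neurons, had 2.37 RPKM, and the proliferation genes Mki67 and Top2a had 0.251 and 0.201 RPKM.

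Choroid plexus genes held 0.0591% of the reads in the WT library, against 0.522% in the Ogg1-/- library, 0.542% in the Mutyh-/- library and 0.272% in the DKO library, so the WT library held the least of the 4. Like the chaperone list, this list was compared because WT was already known to stand apart on it, and the difference was not tested. All 20 genes were listed in WT, with Ttr at 158 RPKM, Enpp2 (also an oligodendrocyte gene) at 81.7, Kl at 8.42, Lbp at 3.91 and Clic6 at 3.91 RPKM, and with Kcnj13 at 1.84 and Folr1 at 1.14 RPKM. Of thalamic genes Zic1, Prkcd, Plekhg1, Slc17a6 and Lef1 had 16.5, 15.7, 4.74, 3.35 and 3.23 RPKM, while Tnnt1 had 13 reads and Ramp3 34 reads. Of striatal genes Ppp1r1b had 30.3, Pde10a 12.4, Rxrg 3.21, Drd2 3.21 and Rgs9 3.11 RPKM.

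Hypothalamic and pituitary genes held 97 reads in all, led by Nkx2-1 with 38 reads and Hcrt with 16 reads, with 13 for Trh, 6 for Pomc and 5 for Oxt; Pmch had 2 reads, Gh 4 reads, and Prl and Otp were not listed. Liver genes held 0.00753% of the reads, of which Alb gave 752 reads and 20.3 RPKM, with Apoa1 at 3.69 RPKM and Fgb at 0.736 RPKM. Heart genes held 0.00347% of the reads, with Actc1 at 5.08, Myl2 at 4.10 and Myh6 at 2.28 RPKM, and Myl7 was not listed. Of blood genes the beta-globin row Beta-s had 35.2 RPKM and Hba-a1 10.6 RPKM, both under 50% coverage, and Hbb-bt was not listed; globin genes are near-identical and their split is uncertain. The male-specific genes Eif2s3y and Ddx3y had 456 and 816 reads, while Xist, which marks the inactive X chromosome of females, had 14 reads.

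The genes that the series knocks out were weakly expressed in WT. Ogg1, the glycosylase that removes 8-oxoguanine opposite cytosine, had 94 reads and 3.33 RPKM (2.69 to 4.08), with 86.7% of its length covered. Mutyh, which removes adenine opposite 8-oxoguanine, had 39 reads and 1.24 RPKM (0.882 to 1.70). Nudt1, which clears oxidized nucleotides from the pool, had 24 reads and 1.41 RPKM (0.904 to 2.10), and its interval overlapped that of Mutyh. All 3 lay below the median of listed genes.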

How the data were processed

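RNA from WT hippocampus was measured in 1 library. The authors deposited a count of uniquely placed reads per gene, the gene length in bases, the coverage as a percent of that length and the RPKM, per the file headers. Recomputing RPKM from reads, length and the summed reads of the listed genes matched the deposited RPKM to a relative gap of 2.2e-14. Total RNA was used, per the labels' protocols, and the build was mm9, per the submitters' processing notes. Neither aligner nor counter, nor the annotation or strandedness, is given in the sources used here, so antisense and overlapping genes cannot be told apart. The reads summed to 18117455, and genes without reads were not listed.

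Shares, ranks, exact intervals and exact conditional intervals of ratios were computed in Python 3.11.15 with pandas and SciPy; interval code was tested on simulated data. Neighbours in an order were taken as not separated where their intervals overlapped. Of the listed gene IDs, 17337 were found in the RefSeq table. Classes were gene lists. The ribosomal protein, respiratory chain and proteasome lists were taken by gene name among the listed genes. So were the receptor, channel and factor families, and none of these groups can have unlisted members. For each list the highest, the lowest and the unlisted members were named, with all other members for glutamate and GABA receptors; some genes are not reported here. Members and lists were chosen with earlier results of these data known. Alternatives were the share of summed RPKM, other denominators and minimums, and membership by the deposited gene ontology terms. The other 3 libraries were used only for 2 lists and for unlisted genes. Those 2 lists were picked because earlier results of these data had set WT apart on them.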

Additional observations from a re-analysis of the deposited data

Results flagged for a closer look

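Rows with a gene ID but no symbol held 0.0179% of the WT reads, which is above the floor of 3 reads and lay outside every class and family. They were 46 rows with 3238 reads, and the row with most reads had 739 of them and 12.3 RPKM.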

How the results depend on the processing

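Measured as a share of summed RPKM, the classes moved to 2.72% (synaptic vesicle), 2.09% (postsynaptic), 0.572% (myelin), 3.46% (ribosomal protein), 2.30% (respiratory chain), 1.82% (astrocyte), 0.113% (microglia) and 0.230% (neuropeptide), which puts ribosomal proteins above both synaptic lists. Without structural and long noncoding RNA, 2.20% of the reads, the same classes held 3.29%, 2.997%, 0.641%, 0.933%, 0.739%, 1.70%, 0.0734% and 0.0576%. Without the member with most reads they held 2.98%, 2.37%, 0.356%, 0.874%, 0.633%, 1.305%, 0.0614% and 0.0360%. Leaving out members under 50% coverage moved none of them beyond its counting interval. With members taken from the deposited gene ontology component terms, an alternative chosen after seeing the data, the synaptic share was 2.24%, the ribosomal share 0.801% and the respiratory chain share 0.365%. The number of genes at or over 1 RPKM was 14735 at a minimum of 0.3 and 10663 at a minimum of 3, and the number of genes holding 50% of the reads was 920 by RPKM. Ordered by reads, 35 of 46 families kept their highest member. No paired analysis was possible because there was 1 library per genotype. In genes of a few reads the counting error limits any order, and in genes with near-identical copies the counting of unique reads may.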

Other observations

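Proteasome genes, which are not among the 18 classes above, had a median of 41.6 RPKM over 39 listed genes, with 33 at or over 10 RPKM. Mitochondrial ribosomal protein genes were lower and even, with all 76 listed genes at or over 1 RPKM, a median of 16.4 RPKM and 0.157% of the reads. The endothelial genes Slc2a1, the glucose transporter of the blood-brain barrier, and Cldn5, of its tight junctions, had 37.4 and 17.7 RPKM. The pericyte gene Vtn had 41.6 RPKM, and Pdgfra and Gpr17, of oligodendrocyte precursors, had 8.25 and 13.4 RPKM.

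Among genes outside the named families, those carrying a transcription factor term in the deposited gene ontology function column began with the ribosomal RNA row Rn28s1, which codes for no protein. Other such rows with high levels were Tcf25 at 189 RPKM, Ctnnb1, the coactivator beta-catenin, at 118 RPKM and Eno1, the glycolytic enolase, at 80.8 RPKM. These rows were chosen after their values were seen.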
